A study of Drosophila melanogaster with 12 samples.

Results

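A set of 10 genes with a CTCF ChIP-seq peak at the promoter lost expression in the larval central nervous system (CNS) of CTCF0 flies, and the question asked of them here was whether they also need Cp190. They are 10 of the 17510 genes with counts: CG13689, lncRNA:CR44458, CG3358, CG7785, Pms2, CG1354, NLaz, Trx2, CG11334 and CG14321. They were chosen for a CTCF peak within 1 kb of the annotated start site and for lower counts in CTCF0 CNSs than in WT CNSs, so their levels in CTCF0 and its WT control are given as a description and not as a test. Of 269 genes with such a peak that were tested in CTCF0, 133 had a log2 fold change below 0. Among them 11 were differentially expressed (DE) and lower by edgeR, namely these 10 and CTCF itself, where 0.883% of all genes tested were. Of the 269 genes, 14 were DE and higher, where 1.93% of all genes tested were. DESeq2, the tool of the study, called more genes in CTCF0 (392, against 245), so this list holds for edgeR. A gene was called DE where its adjusted p was under 0.05 and its level differed more than 1.5-fold.

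CTCF is a zinc-finger protein that binds DNA at specific sequences and is known in flies and mammals as an insulator protein, which limits contacts between regulatory elements and promoters on either side of its sites. Cp190 is a fly protein found with CTCF and with other insulator-binding proteins at domain boundaries and at active promoters. It is brought to DNA by such partners, so a promoter bound by CTCF may or may not have other ways to recruit it.

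Messenger RNA of third-instar larval CNSs was sequenced in 12 libraries, 3 for each of 4 groups. CTCF0 larvae lacked CTCF from mothers as well as from their own genome and were set against w1118 wild type (WT) libraries of the same experiment. Cp190KO larvae carried a deletion of the Cp190 coding sequence but came from mothers with a functional gene, so maternal Cp190 may persist, and they were set against separate w1118 libraries. Each library was made from a pool of 60 CNSs of larvae raised at 25°C, and p-values measure the spread between such pools. Between 11652548 and 21522453 reads were counted on genes per library, and levels are given as CPM, a gene's counts relative to the scaled total of its library.

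The targeted genes were checked first. CTCF had 1.63 to 2.83 CPM in CTCF0 libraries, against 39.1 to 41.7 CPM in WT libraries (log2 fold change -4.17, adjusted p = 6.5e-05). Cp190 had 24.3 to 40.9 CPM in the libraries labelled Cp190KO, against 24.6 to 47.4 CPM in their WT libraries (log2 fold change -0.22, 95% interval -0.90 to 0.47, adjusted p = 0.81). The count of Cp190 therefore does not check that label, and every direction given below for that mutant holds for the libraries labelled Cp190KO. The study reports loss or reduction of Cp190 ChIP-seq peaks in Cp190KO mutants, which comes from samples other than these libraries. CTCF itself had 33.1 to 58.9 CPM in the libraries labelled Cp190KO and 28.2 to 40.4 CPM in their WT libraries (adjusted p = 0.66). Replicate 3 labelled Cp190KO stood apart, with 375 genes at 1 to 3 counts where the other 11 libraries had 1738 to 2199. The WT controls also differed from each other, since 21.1% of the genes tested between them passed an adjusted p-value of 0.05.

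In CTCF0, CG13689 and the noncoding RNA lncRNA:CR44458 were nearly lost. CG13689 lies on chromosome 2L at 602813 to 604430 of dm6, on the plus strand, and is annotated as protein-coding. It had 0.673, 0.496 and 0.218 CPM in CTCF0 libraries, against 20.6, 20.0 and 22.2 CPM in WT libraries, so that the groups were far apart and WT varied little. These values rest on 21 reads in CTCF0 and 909 reads in WT, and the sum left in CTCF0 was 2.26% of WT (exact 95% counting interval 1.40% to 3.48%). The fitted log2 fold change was -5.45 (95% interval -6.21 to -4.69). All its CTCF0 libraries were under the filter of 1 CPM, so it entered the comparison only through its WT libraries. In bulk CNSs, fewer cells that express a gene and less RNA per cell cannot be told apart.

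lncRNA:CR44458, on chromosome 2R at 15371695 to 15372595, was the least abundant of the 10 genes. Its reads numbered 0, 0 and 2 in CTCF0 libraries, against 41, 22 and 17 in WT libraries. The sum in CTCF0 was 2.45% of WT with an exact counting interval of 0.292% to 9.15%, and the fitted log2 fold change was -5.08 (95% interval -6.75 to -3.41). As for CG13689, only its WT libraries reached the filter of 1 CPM, so it could enter the comparison only because WT was high. Intervals from reads cover counting error only, since reads were not collapsed to molecules.

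Pms2, a gene of DNA mismatch repair, is the neighbour of lncRNA:CR44458 on the opposite strand (chromosome 2R, 15368074 to 15371520). The start sites of these genes lie 175 bp apart with a single CTCF peak between them. Pms2 had 2.20, 1.21 and 1.89 CPM in CTCF0 libraries, against 10.3, 8.97 and 6.84 CPM in WT libraries. All CTCF0 values were thus below all WT values, and 20.3% of the mean WT level was left (log2 fold change -2.29, 95% interval -2.98 to -1.61). Pms2 overlaps unc-5 on the other strand over 227 bp, and CG3358 likewise overlaps mim over 243 bp. As the strand setting of the counting is not given in the sources used here, reads in these stretches may have been assigned to neither gene.

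CG3358 and CG7785 varied little within either group. CG3358 (chromosome 2R, 6923366 to 6924929, plus strand) had 5.94, 4.75 and 5.01 CPM in CTCF0 libraries, against 39.6, 37.6 and 39.6 CPM in WT libraries. CG7785 (chromosome 3R, 18021600 to 18023689, plus strand), also known as CLLD6, had 3.49, 3.33 and 3.20 CPM in CTCF0 libraries, against 17.1, 17.0 and 16.6 CPM in WT libraries. The share of the WT mean that remained was 13.4% for CG3358 and 19.8% for CG7785, and the highest CTCF0 library of either gene stood at 20.6% of it.

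Trx2, a cytosolic thioredoxin that reduces protein disulfides, and CG11334, predicted to be the isomerase of 5-methylthioribose-1-phosphate in methionine salvage, fell less. Trx2 (chromosome 2L, 9613166 to 9616404, plus strand) had 83.5, 94.1 and 87.2 CPM in CTCF0 libraries, against 241.7, 270.7 and 256.5 CPM in WT libraries. This left 34.4% of the WT mean, with a narrow spread in both groups (95% interval of the fitted change 27.3% to 43.4%). CG11334 (chromosome 3R, 31459822 to 31463037, minus strand) had 40.3, 56.1 and 34.2 CPM in CTCF0 libraries, against 103.5, 81.2 and 95.0 CPM in WT libraries. Its remaining share was 46.7%, and its last 48 bp overlap Loxl1 on the same strand.

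CG1354 encodes an Obg-like ATPase, of a family conserved from bacteria to humans, and was the most abundant of the 10 genes in both WT controls. It lies on the X chromosome at 9778742 to 9782094, on the plus strand. It had 108.5, 119.2 and 81.3 CPM in CTCF0 libraries, against 523.7, 454.6 and 500.1 CPM in WT libraries. The fall left 20.9% of the WT mean (log2 fold change -2.26, 95% interval -2.70 to -1.82). Per kb of exon, its mean level was 55.6 CPM in CTCF0 and 266.1 CPM in WT, still the highest of the 10 genes in WT but below CG14321 and Trx2 in CTCF0. The peak upstream of CG1354 was cloned by the study into an enhancer-blocking reporter, and the parts of its amplification primers that follow the shared cloning tail are shown, 5′ to 3′, to mark the ends of that element. They were not matched to the genome here.
CG1354 peak forward: gtaaagcacaagtaaacttatg
CG1354 peak reverse: tttacgaaaatttaagcgtcc

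NLaz and CG14321 complete the set. NLaz (chromosome 2L, 1359837 to 1361821, minus strand) encodes the secreted lipocalin Neural Lazarillo, a homologue of mammalian apolipoprotein D that binds lipids. It had 22.8, 26.3 and 19.0 CPM in CTCF0 libraries, against 102.3, 39.4 and 148.5 CPM in WT libraries, so the spread lay in WT and not in the mutant. CG14321 (chromosome 3R, 17733598 to 17734381, plus strand) had 84.4, 75.8 and 67.3 CPM in CTCF0 libraries, against 128.4, 164.7 and 157.9 CPM in WT libraries. The CTCF0 mean was 23.5% of WT for NLaz and 50.4% for CG14321, which had the smallest change of the set (log2 fold change -0.99). Calls of NLaz, CG11334 and CG14321 were lost when single libraries were left out, and between 5 and 9 of the genes were then DE. The low end came without WT replicate 1 or WT replicate 3, with 5 genes each, and without WT replicate 2 it was 6; CG13689 and lncRNA:CR44458 then missed the filter in each case and were not tested.

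**Figure D1:**
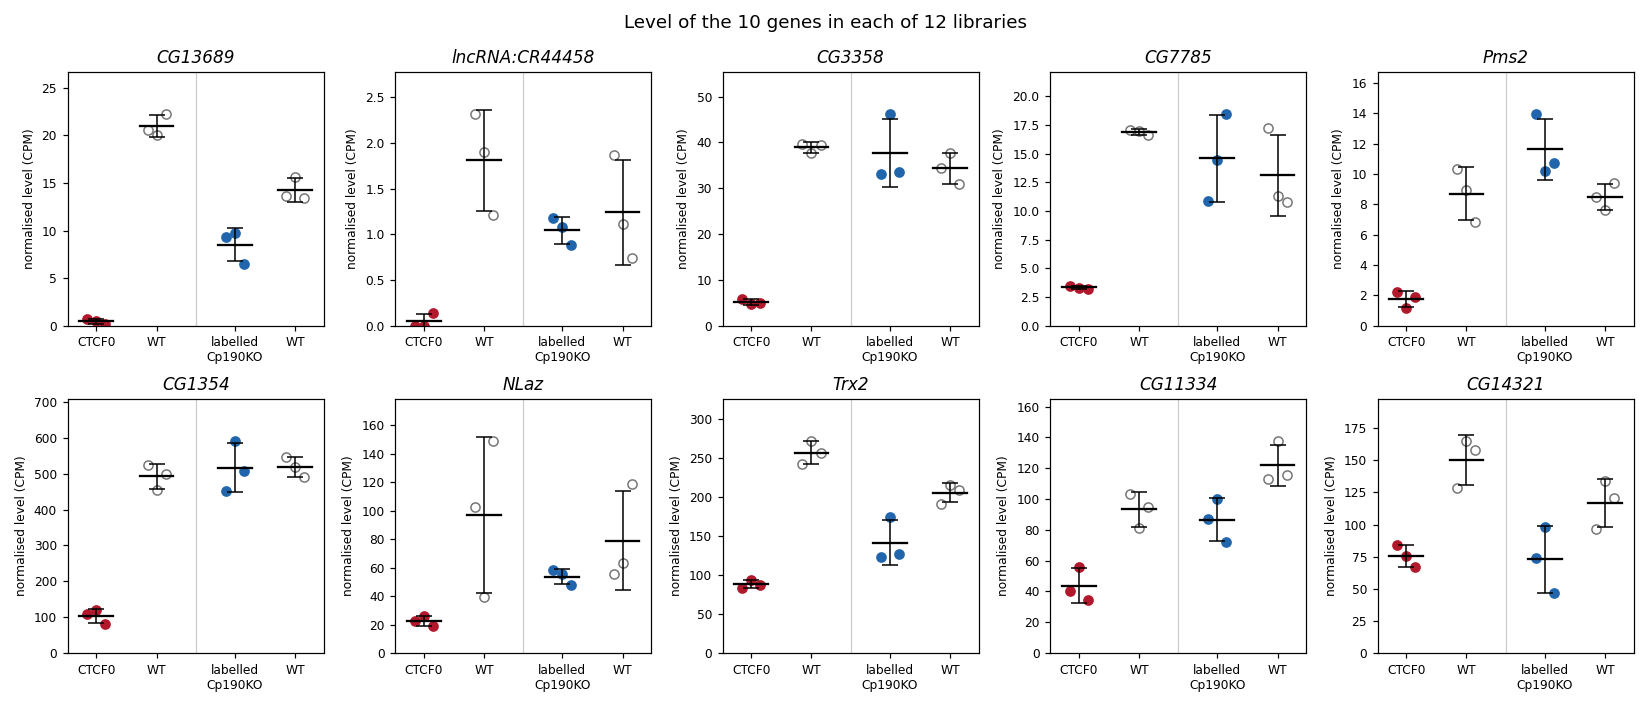
Normalised level (CPM, linear axes from 0) of the 10 genes in each of the 12 libraries, with points for libraries, horizontal bars for group means and error bars for 1 SD (n = 3). In every panel the 3 CTCF0 points lie below the 3 points of their WT control, whereas the libraries labelled Cp190KO lie wholly below theirs only for CG13689, Trx2 and CG11334.

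All 10 genes were lower and DE in CTCF0, and in each the libraries of CTCF0 and WT did not overlap. Over all genes tested, 0.883% were DE and lower and 7.35% had all CTCF0 libraries below all WT libraries. Since the genes were picked from that comparison, nothing is read from their counts. The median log2 fold change of the 10 genes was -2.28, against 0.01 over all 8718 genes tested. At the edge of the rule, the members with the largest adjusted p-values were NLaz at 0.0409, CG11334 at 0.0357 and CG14321 at 0.0175. Just outside were Oli, an Olig-family transcription factor, at 0.0568, CG14903 at 0.0578 and sgll, the pyridoxine phosphate oxidase, at 0.0618. Their log2 fold changes were -0.92, -0.90 and -0.78, close to those of CG14321 and CG11334.

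A shared feature that the rule did not use was the side of the start on which the peak lay. In all 10 genes the peak position in the study's list was upstream of the outermost annotated start. It was at 48 bp for CG14321, 50 bp for Pms2, 66 bp for CG3358, 96 bp for Trx2 and 102 bp for CG1354. The distance was 125 bp for lncRNA:CR44458, 143 bp for CG11334, 150 bp for CG7785, 273 bp for CG13689 and 599 bp for NLaz. Among the other 243 genes with a CTCF peak within 1 kb that were tested in both comparisons, 207 (85.2%) also had it upstream, so the position is common to such promoters. The median distance was 113.5 bp for the 10 genes and 241 bp for the others.

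The genes across the peak were examined next. Outside the pair of Pms2 and lncRNA:CR44458, 8 peaks had a gene of the set on only 1 side, and the nearest tested gene across the peak lay 2075 to 108963 bp from the peak. Of these 8 genes, 5 lay more than 10 kb away. In CTCF0, 0 of the 8 were DE, against 2.81% of all genes tested, so the count is near the background. The genes of the set, all at -0.99 or below, were picked for lower counts in CTCF0, so their contrast with the genes across the peak is no test. The log2 fold changes of these 8 genes across the peak ran from -0.64 to 0.58 with a median of -0.05. The lowest was DNaseII, the acid deoxyribonuclease next to CG7785, which had a mean of 66.4 CPM in CTCF0 and 103.7 CPM in WT (95% interval of the log2 change -1.21 to -0.08, adjusted p = 0.332). The highest was the homeobox gene Gsc across from CG13689, with 3.83 to 6.03 CPM in CTCF0 and 3.28 to 3.56 CPM in WT (adjusted p = 0.406). The remaining 6 were CG30158, the zinc-finger gene Sp1, the axon guidance receptor gene robo2, the glial determinant gene gcm2, the coatomer gene gammaCOP and osa, a subunit gene of the Brahma complex. In the libraries labelled Cp190KO, 0 of the 8 genes were DE, against 2.41% of all genes tested. Their log2 fold changes there ran from -0.45 for gcm2 to 1.14 for Gsc (95% interval 0.28 to 1.99, adjusted p = 0.234). That of DNaseII was 0.56 (95% interval 0.21 to 0.91, adjusted p = 0.146).

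For NLaz, CG11334 and CG14321, the annotated gene next to the peak on the far side was too low to be tested. CG11333 starts 121 bp from the peak of CG11334 on the opposite strand and had 1 read over the 3 CTCF0 libraries and 0 reads over their WT libraries, at a floor of 3 reads. CG14346, across from NLaz, had 1 read in CTCF0 and 2 reads in WT. Lgr1, a glycoprotein hormone receptor gene across from CG14321, had 36 reads in CTCF0 and 24 reads in WT.

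Of 10 tested genes other than members that started within 10 kb of any of the 9 peaks, 1 was DE in CTCF0, against 2.81% of all genes tested. This was Loxl1, a lysyl oxidase gene that starts 3311 bp from the peak behind CG11334, named here after its values were seen. Loxl1 overlaps the last 48 bp of CG11334 on the same strand, and the part of CG11334 in its level was not tested. It had a mean of 2.71 CPM in CTCF0 and 8.66 CPM in WT (log2 fold change -1.67, adjusted p = 0.0313). It did not pass in the libraries labelled Cp190KO (11.5 CPM, against 13.0 CPM in WT, adjusted p = 0.808). In those libraries 11 such neighbours were tested and 1 was DE, against 2.41% of all genes tested. It was CG31659, 2630 bp from the peak of NLaz, too low to be tested in CTCF0 and likewise named after its values were seen. It had 1.08, 2.40 and 2.38 CPM in libraries labelled Cp190KO, against 0.197, 0.247 and 0.197 CPM in WT libraries (log2 fold change 3.16, adjusted p = 0.0229).

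**Figure D2:**
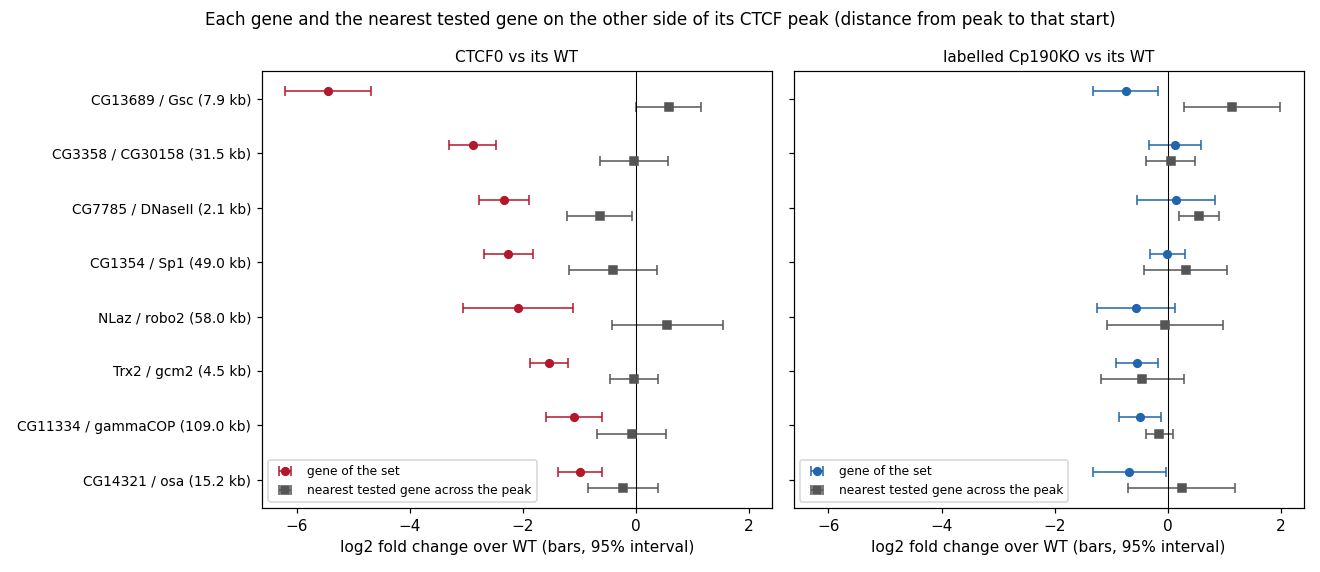
Log2 fold change over WT with its 95% interval for 8 of the genes (circles) and for the nearest tested gene on the other side of the same CTCF peak (squares), in CTCF0 at left and in the libraries labelled Cp190KO at right. In CTCF0 the circles, which are genes picked for lower counts there, lie between -5.45 and -0.99 and the squares between -0.64 and 0.58.

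In the libraries labelled Cp190KO, 0 of the 10 genes were DE and lower, and 0 were DE and higher, by edgeR's quasi-likelihood test. Over all 8599 genes tested, 1.02% were DE and lower and 1.38% DE and higher. The 10 genes nevertheless did not behave alike. Their log2 fold changes ran from -0.74 to 0.45, with a median of -0.37, against a median of 0.08 over all genes tested. At an unadjusted p under 0.05, 4 of the 10 genes were lower, against a background of 5.69% of all genes, and DESeq2 likewise had 4 at that level and 1 DE gene.

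For CG3358, CG7785, CG1354, Pms2 and lncRNA:CR44458 no fall was detected in the libraries labelled Cp190KO, and the intervals left out a fall as large as that in CTCF0. As these genes were picked for a fall in CTCF0, setting the changes side by side is no test. CG1354 had 452.7, 589.9 and 508.9 CPM in libraries labelled Cp190KO, against 546.5, 520.0 and 491.1 CPM in WT libraries. The groups overlapped, the mean was 99.6% of WT and the 95% interval of the fitted change was 80.4% to 123% of WT, which leaves out the 20.9% seen in CTCF0. CG3358 had 33.2, 46.2 and 33.6 CPM in libraries labelled Cp190KO, against 34.4, 37.7 and 31.0 CPM in WT libraries, with an interval of 79.6% to 150% of WT.

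CG7785 had 10.9, 14.4 and 18.4 CPM in libraries labelled Cp190KO, against 17.2, 11.3 and 10.8 CPM in WT libraries. Both groups spread over the same range, and the interval was 69.1% to 179% of WT. Pms2 had 14.0, 10.2 and 10.7 CPM in libraries labelled Cp190KO, against 8.47, 7.65 and 9.39 CPM in WT libraries. It was the only gene of the set with all mutant libraries above all WT libraries, as were 9.87% of all genes tested, and its change did not pass (log2 fold change 0.45, 95% interval -0.11 to 1.01, adjusted p = 0.513). Its partner at the same peak, lncRNA:CR44458, had 25, 18 and 16 reads in libraries labelled Cp190KO, against 38, 18 and 15 reads in WT libraries. At this depth its interval was wide, at 41.2% to 173% of WT, but stayed above the 9.43% that bounds its interval in CTCF0.

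CG13689, Trx2, CG11334 and CG14321 were the 4 genes with an unadjusted p under 0.05, all lower. CG13689 had 9.35, 9.70 and 6.53 CPM in libraries labelled Cp190KO, against 13.6, 15.7 and 13.5 CPM in WT libraries. The groups did not overlap, and the mean was 59.8% of WT (log2 fold change -0.74, 95% interval -1.31 to -0.17, adjusted p = 0.248). DESeq2 called it, with a log2 fold change of -0.78 and an adjusted p of 0.0336, and its adjusted p ran from 0.0336 to 0.652 over all alternatives.

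Trx2 had 123.2, 173.8 and 127.2 CPM in libraries labelled Cp190KO, against 191.2, 215.4 and 208.8 CPM in WT libraries. Its mean was 68.9% of WT, with no overlap (log2 fold change -0.54, 95% interval -0.91 to -0.17, adjusted p = 0.189). DESeq2 gave Trx2 an adjusted p of 0.0449 at a log2 fold change of -0.57, which fell just short of the 1.5-fold limit. CG11334 had 87.2, 100.2 and 72.3 CPM in libraries labelled Cp190KO, against 113.2, 137.3 and 115.6 CPM in WT libraries. Again the groups did not overlap, and the mean was 70.9% of WT (log2 fold change -0.50, 95% interval -0.87 to -0.12, adjusted p = 0.235). Without replicate 2 labelled Cp190KO, Trx2 was DE at a log2 fold change of -0.71 (adjusted p = 0.0222).

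CG14321 had 74.2, 98.5 and 46.4 CPM in libraries labelled Cp190KO, against 96.8, 133.6 and 120.7 CPM in WT libraries. The highest mutant library overlapped the lowest WT library, the lowest was replicate 3, and the log2 fold change was -0.68 (95% interval -1.33 to -0.03, adjusted p = 0.356). Without replicate 2 labelled Cp190KO it was DE at -0.96 (adjusted p = 0.0378), and without replicate 3 it was -0.43 (adjusted p = 0.612). NLaz had 58.0, 55.2 and 47.8 CPM in libraries labelled Cp190KO, against 55.2, 63.0 and 118.7 CPM in WT libraries. Its lower mean rested on the single high WT replicate 3, since the log2 fold change was -0.56 with it and -0.14 without it. The same WT library had 139.7 CPM of the ring gland gene phtm, where the other 5 libraries of that experiment had 4.19 to 9.39 CPM, and the part of ring gland tissue in the NLaz value was not tested. Over the set, 3 of 10 genes had all libraries labelled Cp190KO below all WT libraries, against 9.92% of all genes tested.

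**Figure D3:**
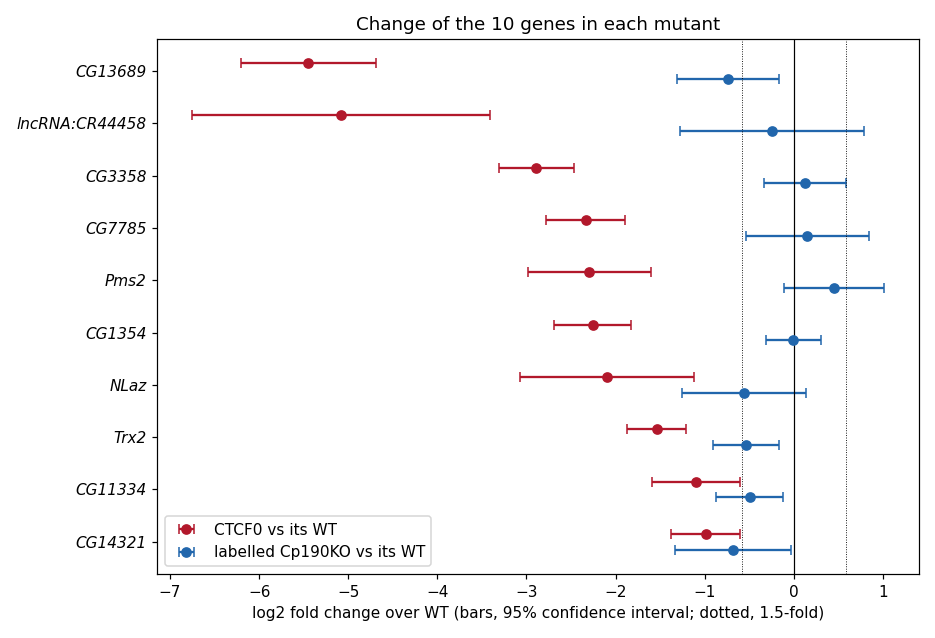
Log2 fold change of each of the 10 genes over its own WT control, in CTCF0 (upper point of each row) and in the libraries labelled Cp190KO (lower point), with 95% intervals. The intervals do not overlap for 7 genes and overlap for NLaz, CG11334 and CG14321.

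Set side by side, the changes in the mutants had intervals that did not overlap for 7 genes and overlapped for NLaz, CG11334 and CG14321. The log2 change in CTCF0 minus that in the libraries labelled Cp190KO was -4.70 for CG13689 (95% interval -5.58 to -3.82), -4.85 for lncRNA:CR44458 (-6.89 to -2.80) and -3.02 for CG3358 (-3.58 to -2.45). It was -2.74 for Pms2, -2.50 for CG7785, -2.25 for CG1354 and -0.99 for Trx2 (-1.46 to -0.52). These 7 genes passed the test of the difference across all genes, as did 1.42% of the 8954 genes tested. Because the CTCF0 values that chose the genes enter that difference, the count is not independent evidence. With each library left out in turn, lncRNA:CR44458 passed in 8 of 12 fits and Trx2 in 2, those without CTCF0 replicate 2 and without replicate 1 labelled Cp190KO, and the other 5 genes passed in all 12.

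The remaining 3 genes did not pass it. The difference was -1.53 for NLaz (95% interval -2.75 to -0.30), -0.59 for CG11334 (-1.20 to 0.03) and -0.29 for CG14321 (-0.98 to 0.40). The interval of CG14321 includes both no difference and a change in CTCF0 smaller than that in the other mutant. The WT controls of CG11334 differed by themselves, with 113.2 to 137.3 CPM in that of the libraries labelled Cp190KO and 81.2 to 103.5 CPM in that of CTCF0 (log2 difference, the first minus the second, 0.48, adjusted p = 0.0258). It was the only member for which they passed. The experiments were also sequenced on different instruments with different read lengths, so experiment and mutant cannot be told apart in this difference.

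Of 258 genes with a CTCF peak at the promoter that were tested in the libraries labelled Cp190KO, 4 (1.55%) were DE and lower and 10 (3.88%) DE and higher, and 0 of the 14 were members. Over all genes tested these shares were 1.02% and 1.38%, and the count among the members was not tested against that among the others. The 4 lower genes, which beyond sgll and CG14903 are named after their values were seen, were stl, an ADAMTS-type protease gene (log2 fold change -2.87), CG13896 (-2.47), CG14903 (-1.67) and sgll (-1.63). In CTCF0 these genes had log2 fold changes of -1.58, -0.78, -0.90 and -0.78, so each was lower by more than 1.5-fold. Their adjusted p-values there ran from 0.0578 to 0.104 by edgeR, so none was DE. Missing that call does not show that they were unchanged in CTCF0.

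The 3 CTCF-bound genes just outside the rule differed from each other in the libraries labelled Cp190KO, where Oli, unlike CG14903 and sgll, was not DE (log2 fold change 0.14, adjusted p = 0.75). sgll had 14.2, 16.4 and 13.3 CPM in libraries labelled Cp190KO, against 50.1, 44.7 and 41.6 CPM in WT libraries, a change larger than that of any of the 10 genes in that mutant. In the other experiment it had 32.8, 36.4 and 25.6 CPM in CTCF0 libraries, against 54.3, 53.6 and 54.6 CPM in WT libraries. The median log2 fold change in the libraries labelled Cp190KO was -0.37 for the 10 genes and 0.14 for the other 243 CTCF-bound genes. Of these 243 genes, 80 (32.9%) were below 0, against 7 of the 10, and 14 (5.76%) were lower at an unadjusted p under 0.05, against 4 of the 10. These shares are descriptions, and no test of the set was made.

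**Figure D4:**
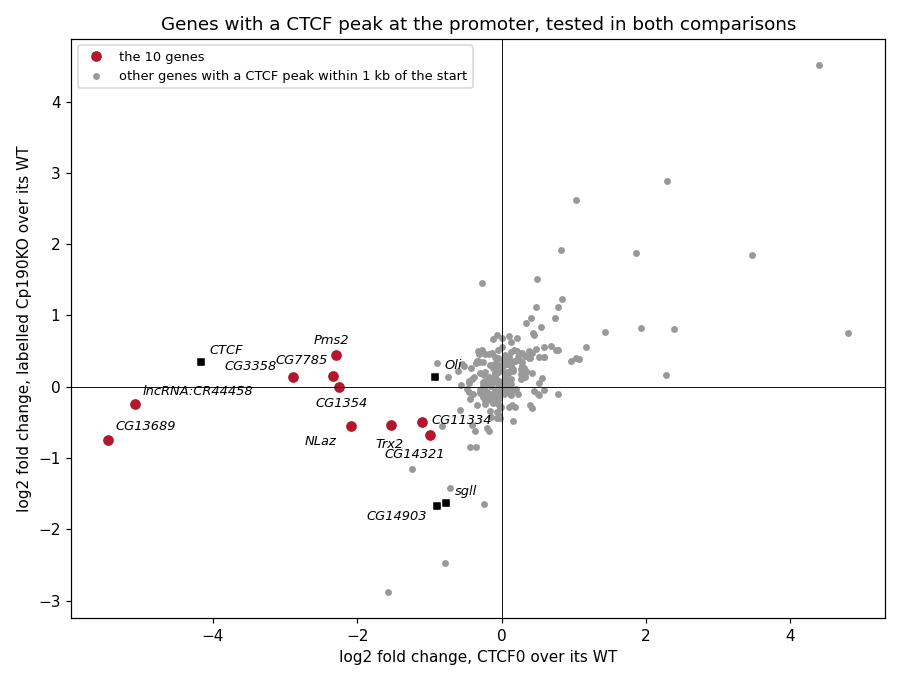
Log2 fold change in CTCF0 (horizontal axis) and in the libraries labelled Cp190KO (vertical axis) of the genes with a CTCF peak within 1 kb of the start that were tested in both, with the 10 genes in red and CTCF, Oli, sgll and CG14903 as black squares. The red points reach -5.45 on the horizontal axis but only -0.74 on the vertical axis, while sgll and CG14903 lie lower on the vertical axis at -1.63 and -1.67.

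Genes of the pathways in which members have known roles were listed for comparison. Of 19 related genes listed for mismatch repair, the thioredoxin system, lipocalins and methionine salvage, 14 were tested in each comparison and 0 were DE in either, a count near the background of 2.81% of all genes in CTCF0 and 2.41% in the libraries labelled Cp190KO. In mismatch repair, the log2 fold changes of the 4 genes in CTCF0 lay between -0.14, for PCNA, the sliding clamp of DNA replication, and 0.51, for Msh6, a MutS homologue that binds mismatches. In the thioredoxin system, 5 of 9 genes were tested and lay between -0.25 and -0.04 in CTCF0, among them Trxr1, the reductase that recycles thioredoxin, at 698.7 CPM in CTCF0 and 766.4 CPM in WT. The germline thioredoxin genes dhd and TrxT were below the filter. The other lipocalin tested, GLaz, had 30.0 CPM in CTCF0 and 29.8 CPM in WT. In methionine salvage, the 4 genes lay between -0.23 and 0.78, with Adi1 at 26.8 CPM in CTCF0 and 15.6 CPM in WT (adjusted p = 0.0912). In the libraries labelled Cp190KO the 14 genes lay between -0.37, for the peroxiredoxin gene Prx4, and 1.02, for Adi1 (adjusted p = 0.110).

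Over the 12 libraries, the gene whose log2 CPM was most like the mean standardized profile of the 10 genes was CTCF (Pearson r = 0.95), which was low only in CTCF0. It was followed by Rdh1 (0.95), Cisd2 (0.92), the esterase gene alpha-Est5 (0.92) and CG4250 (0.92), none of which had a CTCF peak within 1 kb. Among the members, each of which is part of that mean, agreement with it ranged from r = 0.62 for CG14321 to r = 0.996 for CG13689. The mean profile came from genes picked for lower counts in CTCF0, so a best match to genes low in CTCF0 was largely set by the rule. These correlations are also over libraries that share groups, and they are descriptions.

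Markers of the CNS were present, since 10 of 10 marker genes of neurons, neuroblasts and glia passed the filter in both comparisons. Their presence does not exclude other tissues. Of these markers 0 were DE in either mutant, which does not show equal levels with 3 libraries per group. The log2 fold changes of these markers ran from -0.32 to 1.05 in CTCF0 and from -0.38 to 0.65 in the libraries labelled Cp190KO. Markers of tissues that can stay attached to a dissected CNS were present and not always even. The summed muscle markers Mhc, up and Mlc2 reached 30.6 to 36.0 CPM in CTCF0, against 10.6 to 18.8 CPM in WT, and 1 of 3, Mlc2, was DE and higher. Hemocyte markers summed to 1.77 to 8.26 CPM in CTCF0, against 0.285 to 1.38 CPM in WT. Ring gland markers were high in the CTCF0 experiment, at 101.5 to 137.5 CPM in CTCF0, against 87.0 to 128.7 CPM in WT. In the other experiment they summed to 5.31 to 10.4 CPM in the libraries labelled Cp190KO, against 5.37 to 149 CPM in WT. Fat body markers summed to 3.85 to 29.4 CPM in CTCF0, against 5.14 to 43.0 CPM in WT, and salivary gland markers stayed under 10 CPM in every library. No muscle marker was at 0 in any library, whereas dib, NimC1 and the fat body marker Lsp2 were at 0 in at least 1 library labelled Cp190KO. The part of these tissues in the levels of the 10 genes was not tested.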

How the data were processed

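Strand-specific poly(A) RNA libraries were made from 60 CNSs per replicate. The authors mapped the reads to dm6 with FlyBase gene models and deposited counts of reads per gene made with HTSeq 0.9.1, without normalization. Reads were paired-end in the CTCF0 experiment and single-end, from another instrument, in the Cp190KO experiment. Summary entries that name no gene, 22.6% to 34.8% of each library's total, were left out.

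A gene was kept if 3 or more of the 6 libraries reached 1 CPM. Counts were scaled by TMM and tested with edgeR 4.0.16 (quasi-likelihood, robust) in R 4.3.3, each mutant against its own WT control, with p-values corrected across the tested genes (Benjamini-Hochberg). The difference between the changes was tested in a model of all 12 libraries. DESeq2 1.42.0, other scalings, filters and thresholds, the replicate number as a block and each library left out in turn were alternatives. The pipeline was tested on simulated data, in which only genes with many reads were changed. Those changes were larger than that of any member in the libraries labelled Cp190KO. Recovery of smaller changes, or of changes in genes with few reads, was thus not covered.

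Start sites came from an annotation of dm6, which placed 17405 of the 17510 genes, and the 740 CTCF peak positions from the study's peak list. Where a gene had several annotated starts, the outermost was used. Mean CPM per kb used the union of exons. Named genes were the 10 members, CTCF, Cp190, the nearest tested gene across each peak, any tested gene within 1 kb of it, the 3 CTCF-bound genes nearest to the call, related genes that were DE, and the 5 genes with the most similar profile. Members and lists were chosen with earlier results of these data known. A planned motif search in promoter sequence was not analysed here. A gene of the planned lists is not reported here.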

Additional observations from a re-analysis of the deposited data

Results flagged for a closer look

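The change in CTCF0 minus the change in the libraries labelled Cp190KO passed the test across all genes for 7 of the 10 genes. Over all 8954 genes tested, 1.42% passed. The log2 difference was -4.70 for CG13689, -4.85 for lncRNA:CR44458, -3.02 for CG3358, -2.50 for CG7785, -2.74 for Pms2, -2.25 for CG1354 and -0.99 for Trx2. The CTCF0 values that chose these genes are part of each difference. That of Trx2 was the least secure, with an adjusted p of 0.0403, and it passed in 2 of 12 fits with a library left out. Groups of 3 libraries were too small for a check on single outlying samples.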

How the results depend on the processing

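The direction of all 10 genes in CTCF0 held under every alternative that could be fitted, and 7 to 10 stayed DE beyond those that leave out a library. With single libraries left out, 5 to 9 members were DE in CTCF0, 0 to 2 in the libraries labelled Cp190KO (none without replicate 3) and 5 to 7 in the difference. DESeq2 called 1 member lower in the libraries labelled Cp190KO and 392, 440 and 213 genes in CTCF0, in the libraries labelled Cp190KO and in the difference, where edgeR called 245, 207 and 127. No filter beyond 1 count gave 382 genes in CTCF0, and a fit of all 12 libraries 366 in the libraries labelled Cp190KO. An adjusted p under 0.01 gave 119, 64 and 50 genes. Leaving out libraries gave 90 to 556, 24 to 318 and 69 to 141 genes. With a window of 2 kb, 23 CTCF-bound genes were DE in the libraries labelled Cp190KO, against 14. The cause of these shifts was not tested.

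The replicate number was not treated as a pairing in the main fits. Deviations of same-numbered libraries correlated at -0.50 to -0.16 in the CTCF0 experiment and at -0.01 to 0.48 in the other. Libraries of unlike number correlated at -0.27 to 0.54 and at -0.34 to 0.34. With 3 libraries per group, these values cannot decide whether samples were paired. With the replicate block, 145, 89 and 60 genes and 7, 0 and 5 members were called. No alternative changed the sign of a called member. With single libraries left out, the log2 fold change in the libraries labelled Cp190KO ran from -0.042 to 0.22 for CG3358, -0.043 to 0.40 for CG7785 and -0.11 to 0.089 for CG1354, and the difference from -0.51 to 0.021 for CG14321. Depth limits lncRNA:CR44458 most, which has 2 reads in CTCF0.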
